A study of Homo sapiens with 5 samples.

Results

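Of the 23905 replication origins that ini-seq 2 called after a 3-hour reaction, 1412 (5.91%) lay more than 10 kb from every gene record of any type in GENCODE release 44 on hg38. They are called here gene-distant origins. Membership rests on the called position and the annotation alone, so efficiency, sequence and overlap with the other lists took no part in the choice. GENCODE and RefSeq differ over these sites: 386 of the 1412 (27.3%) had a RefSeq gene record within 10 kb, and 213 (15.1%) were overlapped by one, so "far from any gene" holds for the GENCODE records only. Ini-seq 2 was run on nuclei of EJ30, a human bladder carcinoma cell line, that had been arrested in late G1 phase with mimosine. The nuclei were incubated in cytosolic extract from HeLa cells, a human cervical carcinoma line, with Br-dUTP, a dense nucleotide, for 3 hours or for 15 minutes, and newly replicated heavy-light (HL) DNA was parted from unreplicated light-light (LL) DNA by density. SNS-seq, which sequences short nascent strands isolated from EJ30 cells, was run on strands of 0.5 to 2 kb and of 2 to 4 kb. Each condition is 1 list of positions (10181 origins at 15 minutes, 147657 and 184966 SNS-seq peaks) from 1 cell line, with no replicate lists and no read counts, so the depth behind an origin is unknown and the intervals given for shares, 95% exact Clopper-Pearson, cover counting error only.

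A replication origin is a site where the MCM helicase, loaded in G1 phase with the origin recognition complex, is activated so that a pair of replication forks starts. In human cells efficient origins are often found at promoters and CpG islands, GC-rich stretches in which CpG dinucleotides are frequent because they are rarely methylated in the germ line. Runs of guanine that can fold into a G-quadruplex (G4) are another feature often found at origins.

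Some gene-distant origins held recognisable kinds of sequence. Central 200-base stretches of members picked by rank are shown here, read from the hg38 reference and not from EJ30 reads. The examples are extremes, and 973 of the 1412 members (68.9%) were neither CpG-rich nor purine tracts by the rules given below. The members of highest efficiency were dense in CpG, marked by capitals in the next 3 sequences. They lie between a lncRNA gene and a small RNA pseudogene on chromosome X, 11.1 kb from SP8 (a zinc finger transcription factor gene) on chromosome 7, and 139 kb from the nearest gene record on chromosome 16.
chrX:39689001-39689200, plus strand: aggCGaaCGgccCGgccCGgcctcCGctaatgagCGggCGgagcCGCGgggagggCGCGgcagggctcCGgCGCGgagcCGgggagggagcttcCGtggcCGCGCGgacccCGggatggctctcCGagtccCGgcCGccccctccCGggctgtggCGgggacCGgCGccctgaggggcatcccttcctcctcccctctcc
chr7:20798251-20798450, plus strand: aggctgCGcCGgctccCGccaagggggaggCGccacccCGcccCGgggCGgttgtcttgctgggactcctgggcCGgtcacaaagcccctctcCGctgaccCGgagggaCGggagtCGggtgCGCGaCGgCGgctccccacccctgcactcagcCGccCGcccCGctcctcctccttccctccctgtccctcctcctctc
chr16:34802251-34802450, plus strand: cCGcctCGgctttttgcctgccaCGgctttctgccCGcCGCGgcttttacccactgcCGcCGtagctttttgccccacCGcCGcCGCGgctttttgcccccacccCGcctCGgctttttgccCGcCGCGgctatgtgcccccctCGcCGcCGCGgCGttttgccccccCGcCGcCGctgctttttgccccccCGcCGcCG
The member farthest from any gene lies 360 kb from MAP3K7, the gene of the kinase TAK1, and holds a G4 motif, which the capitals mark.
chr6:90947301-90947500, plus strand: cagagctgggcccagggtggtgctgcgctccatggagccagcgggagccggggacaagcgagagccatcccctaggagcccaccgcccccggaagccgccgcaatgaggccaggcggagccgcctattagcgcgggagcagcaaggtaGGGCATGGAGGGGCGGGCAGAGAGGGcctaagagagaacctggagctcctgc
Members made almost wholly of purines on 1 strand are shown by a member whose purine share lay far from 50% and by the most efficient member without an SNS-seq peak within 5 kb. Capitals mark the few bases that break the tract.
chr12:58149051-58149250, plus strand: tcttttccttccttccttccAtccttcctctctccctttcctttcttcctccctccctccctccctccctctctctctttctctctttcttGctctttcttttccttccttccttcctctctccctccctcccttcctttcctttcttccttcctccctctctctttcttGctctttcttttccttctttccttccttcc
chr11:59690751-59690950, plus strand: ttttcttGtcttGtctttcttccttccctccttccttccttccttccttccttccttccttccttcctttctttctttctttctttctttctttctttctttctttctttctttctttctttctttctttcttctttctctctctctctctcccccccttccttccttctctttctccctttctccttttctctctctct
The most repetitive member lies 39.0 kb from SHOX, a homeobox gene of skeletal growth, near the tip of chromosome X. Capitals mark 1 period of its repeat of 100 bases, at which 98.0% of positions match.
chrX:584551-584750, plus strand: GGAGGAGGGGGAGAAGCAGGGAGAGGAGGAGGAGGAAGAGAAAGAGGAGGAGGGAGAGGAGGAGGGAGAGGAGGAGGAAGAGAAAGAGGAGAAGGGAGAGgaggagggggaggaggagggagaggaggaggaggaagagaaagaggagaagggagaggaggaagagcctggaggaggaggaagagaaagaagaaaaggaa

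Gene-distant origins were less efficient than the other origins of the list. Efficiency, the deposited HL/(HL + LL) ratio with a calling floor of 0.8, had a median of 0.839 among the 1412 (quartiles 0.817 and 0.875) and of 0.876 among the 22493 other origins. The mean difference over 23 chromosomes was -0.0296 (SD over chromosomes 0.013), lower on 23 of 23, with an adjusted p of 2.2e-05 by a two-sided permutation test of 100000 sign flips. Its raw p of 1e-05 is the smallest these flips can give, and p-values of the permutation test were adjusted over 24 tests by Benjamini-Hochberg. Within deciles of GC content, however, the difference was -0.00265 and did not pass the threshold (adjusted p = 0.37, permutation test). When the list was cut into classes of equal size, at efficiencies of 0.842 and 0.906, 174 members (12.3%) fell in the high class, which takes 33.3% of all origins by construction. A further 492 were medium and 746 were low. An efficiency of 0.95 or more was reached by 36 members (2.55%, interval 1.79 to 3.51) and by 2703 of the 22493 other origins.

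**Figure D1:**
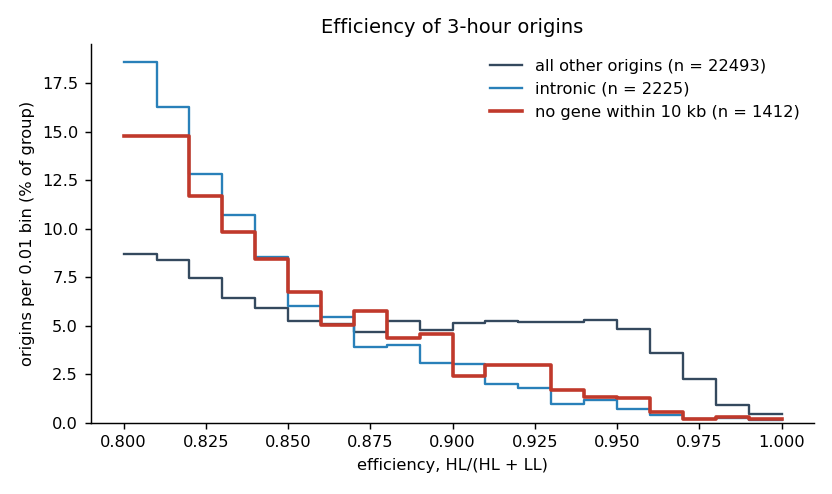
Efficiency of 3-hour origins in bins of 0.01, as the share of each group, for gene-distant origins, intronic origins and all other origins. The gene-distant and intronic curves fall from the calling floor of 0.8, with medians of 0.839 and 0.832, while the curve of all other origins has a broad shoulder above 0.9.

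Gene-distant origins were close in efficiency to origins deep inside introns. Origins inside a gene record that touched no exon and lay over 10 kb from every gene start (intronic origins, 2225) had a median efficiency of 0.832. Gene-distant origins exceeded them by 0.00668 on average, higher on 19 of 23 chromosomes (adjusted p = 0.0064, permutation test), a call that was lost at a 50 kb limit and when differences were taken within the sequence kinds described below. Intergenic origins with a gene within 10 kb (2077) had a median of 0.843, and the difference of gene-distant origins from them was -0.00561 (adjusted p = 0.0019, permutation test), a call lost with protein-coding genes alone and within sequence kinds. Within GC deciles they lay 0.0024 above these origins (adjusted p = 0.23, permutation test). The 3 members just inside the 10 kb limit, 10014, 10034 and 10037 bp from a gene, had efficiencies of 0.8353, 0.9521 and 0.8152, and the 3 origins just outside it, at 9994, 9990 and 9988 bp, had 0.863, 0.8622 and 0.8021.

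Gene-distant origins were shorter than the other origins of the list and longer than intronic ones. Their median length was 500 bp (quartiles 300 and 700) against 800 bp for the other origins, a mean log2 difference of -0.51 that was lower on 23 of 23 chromosomes (adjusted p = 2.2e-05, permutation test). Intronic origins had a median length of 400 bp, and the log2 difference from them was 0.12, higher on 18 of 23 chromosomes (adjusted p = 0.008, permutation test), a call lost at 20 and 50 kb limits. Together the members covered 0.934 Mb of the 23.5 Mb in the list. The longest members were of low efficiency. An interval of 8200 bp at chr10:132460701-132468900 near LINC02870 had an efficiency of 0.8106, and an interval of 7700 bp at chr4:1764801-1772500 had 0.8394. The latter lies 19.6 kb from TACC3, a mitotic spindle gene, and 20.8 kb from FGFR3, a fibroblast growth factor receptor gene. Another, of 6900 bp at chr12:34340801-34347700, had 0.8375.

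Few gene-distant origins were called early. At 15 minutes, 141 of 1412 (9.99%, interval 8.47 to 11.7) were overlapped by a called origin, where 40.3% of the whole 3-hour list was and 42.2% of the other origins. The difference over chromosomes was -33.6 percentage points (SD 8.28), lower on 23 of 23 (adjusted p = 2.2e-05, permutation test). It was -12.5 points within GC deciles and -14.2 points within efficiency deciles, both still past the threshold. Among high-class origins 77 of 174 members (44.3%, interval 36.7 to 52.0) were called at 15 minutes against 85.3% of the other high-class origins. In the medium class the shares were 10.6% and 33.2%, and in the low class 1.61% and 5.05%. Intronic origins of the high class had a share of 40.2% (interval 33.2 to 47.6), which overlaps that of the gene-distant ones. Over all classes, gene-distant origins exceeded intronic ones by 2.96 points, which did not pass the threshold (adjusted p = 0.11, permutation test), although in 6 of 13 alternatives it did, at 3.33 to 8.52 points.

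**Figure D2:**
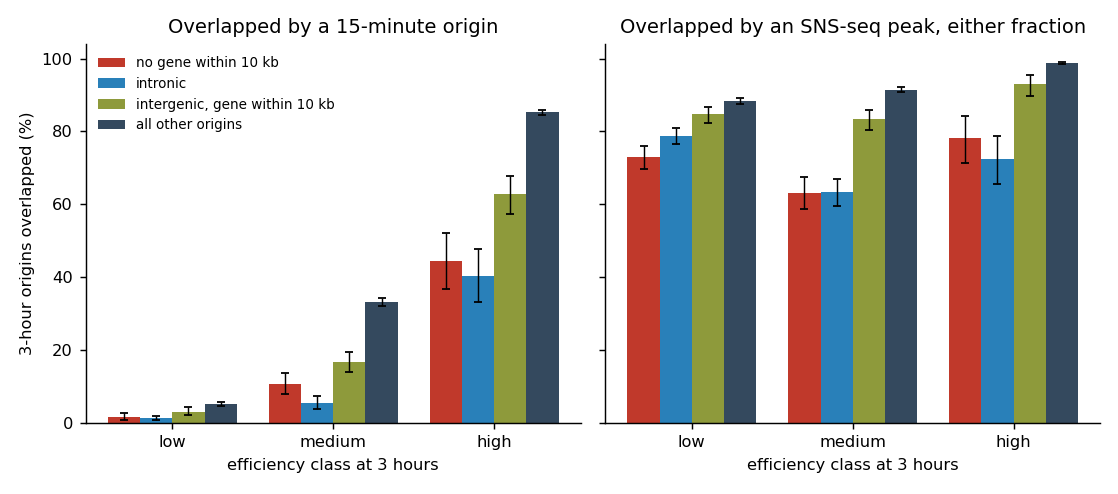
Share of 3-hour origins overlapped by a 15-minute origin (left) and by an SNS-seq peak of either fraction (right), by efficiency class and position relative to genes, with 95% exact binomial intervals as bars. In the high class 44.3% of gene-distant and 40.2% of intronic origins had a 15-minute call, both below the 85.3% of all other origins.

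The members called at 15 minutes also ranked low within the 15-minute list. The deposited Z-score of the overlapping 15-minute origin had a median of -0.588 over 141 members and of 0.0525 over 9492 other origins, and it was above 0 for 44 members (31.2%) against 51.9%. Of these members 123 of 141 (87.2%) were longer at the later time, a share near the 85.8% of the other origins. Their median lengths were 900 bp in the 3-hour list and 400 bp in the 15-minute list, against 1100 and 700 bp for the other origins. The highest scores belonged to CpG-rich members. Z-scores were 2.15 for chr18:48975301-48976600, 2.05 for chr2:42100901-42101700, between PKDCC (a secreted kinase gene) and EML4-AS1, and 1.76 for chr1:244918601-244919100. Their efficiencies at 3 hours were 0.9573, 0.9238 and 0.9309.

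SNS-seq overlap was lower than elsewhere. A peak of either fraction overlapped 991 members (70.2%), against 91.6% of the whole list and 93.0% of the other origins, a difference of -24.5 points over chromosomes that was lower on 23 of 23 (adjusted p = 2.2e-05, permutation test). Peaks of both fractions overlapped 672 members (47.6%), against 77.7% of the whole list. A peak of 2 to 4 kb alone overlapped 305 members and a peak of 0.5 to 2 kb alone 14, and in the whole list too the longer fraction overlapped more origins (21826) than the shorter one (18643). Within 5 kb, 1273 members (90.2%) had a peak, against 97.6% of the whole list. Against intronic origins, of which 73.4% were overlapped, the difference of -3.79 points did not pass the threshold (adjusted p = 0.33, permutation test), and its sign changed in 4 of 15 alternatives.

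Fewer gene-distant origins than other origins were rich in CpG. The criterion (GC over 50% and more than 0.6 of the CpG that the base composition gives, the observed/expected ratio) was met by 251 members (17.8%), against 53.7% of the whole list and 55.9% of the other origins. The difference over chromosomes was -39.7 points, lower on 23 of 23 (adjusted p = 2.2e-05, permutation test), and against intronic origins (10.9%) it was 5.5 points higher (adjusted p = 0.025, permutation test), a call lost at a 50 kb limit, under a stricter CpG criterion and in a fixed 1 kb window. Of the 251, 92 (36.7%, interval 30.7 to 42.9) had a RefSeq gene record within 10 kb, against 27.3% of all members. The same held for 32.2% of high-class members (25.3 to 39.7) and 36.9% of members called at 15 minutes (28.9 to 45.4). The median CpG ratio was 0.297 among members. GC content was also lower on 23 of 23 chromosomes. The median was 64.0%, and the mean lay 4.11 percentage points below that of the other origins (adjusted p = 2.2e-05, permutation test). Against intronic origins the GC difference was 0.0511 points (SD over chromosomes 1.9, adjusted p = 0.9, permutation test).

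G4 motifs, here 4 runs of at least 3 guanines with loops of 1 to 7 bases on either strand, were held by 830 members (58.8%) against 71.0% of the whole list. The share lay 12.1 points below that of the other origins (lower on 21 of 23 chromosomes, adjusted p = 2.2e-05, permutation test), but 2.99 points below within GC deciles, which did not pass (adjusted p = 0.15). Against intronic origins, of which 54.0% held a motif, the share was 4.76 points higher (adjusted p = 0.022, permutation test), a call lost in 5 of 12 alternatives. Since members are shorter than the other origins, a shorter stretch was searched in them. With 1 kb searched at the centre of every origin the difference from the other origins was -7.19 points and passed the threshold.

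Purine tracts were frequent. An interval with at least 75% or at most 25% purines on the plus strand was counted as a tract, and 197 members (14.0%, interval 12.2 to 15.9) were tracts, against 3.24% of the whole list and 2.57% of the other origins. Intronic origins had 13.0%. Of the 197, 92 had the purines on the plus strand, with on average 47.9% G and 41.3% A, and 105 had them on the minus strand. Tandem repeats with a period of 2 to 100 bases were found in 44 members (3.12%) against 1.23% of the whole list and 3.33% of intronic origins, and in 135 members when a match of 70% in place of 80% was asked for. Of the 44, 22 were also tracts, against 14.0% of all members and 3.24% of the whole list. Another trait was position, as 26 of the 44 lay within 5 Mb of a chromosome end. The same held for 537 of all 1412 members and 27.1% of the other origins. At 15 minutes 0 of the 44 were called. This count allows a share of up to 6.82% when the limit is set at 3 counts and not by the Clopper-Pearson method. Over all members 9.99% were called, and over the whole list 40.3%.

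The members therefore divide into CpG-rich origins (242, with CpG-positive tracts left out), purine tracts (197) and the 973 others, a division made after the values of these origins had been seen. CpG-rich members had a median efficiency of 0.902, a 15-minute call for 41.3% and an SNS-seq peak for 95.9%. They made up 100 of the 141 members called at 15 minutes and 114 of the 174 in the high class. In the whole list CpG-rich origins made up 8489 of the 9633 called at 15 minutes and 7513 of the 7968 in the high class. Both shares were larger than those among members. Purine tracts had a median efficiency of 0.875, yet 1 of 197 was called at 15 minutes and 9 (4.57%, interval 2.11 to 8.5) were overlapped by an SNS-seq peak. They made up 188 of the 421 members with no overlapping peak, and for those 188 the nearest peak lay a median of 6398 bp away. In the whole list 81 of 774 tracts were overlapped by a peak, against 21905 of all 23905 origins. Reads had been kept only where they aligned to 1 genomic position, and how this bears on low-complexity tracts in either assay was not tested. The 973 others, with a median efficiency of 0.825, were called at 15 minutes in 4.11% and overlapped by a peak in 77.1%.

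**Figure D3:**
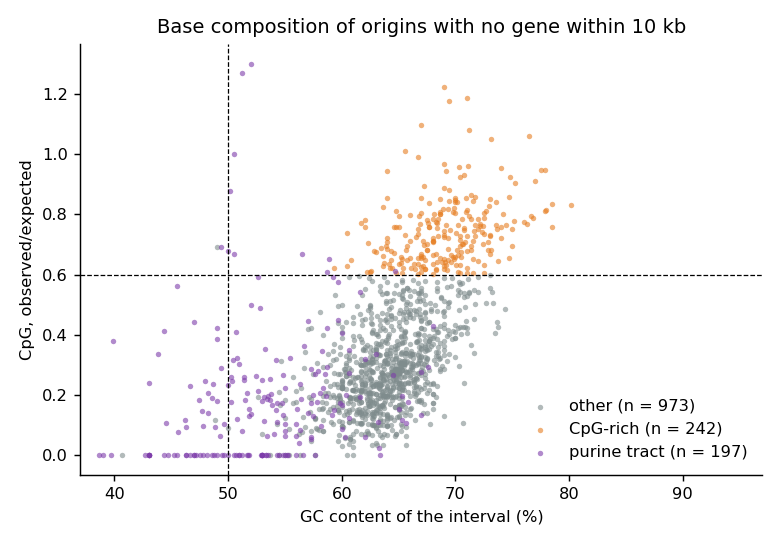
GC content and observed/expected CpG ratio of each of the 1412 gene-distant origins, coloured by sequence kind, with the limits of the CpG criterion dashed (50% and 0.6). The 242 CpG-rich members form the upper right cloud, and the 197 purine tracts lie to the left, at a median GC content of 53.0%.

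The same kinds in the rest of the list had similar efficiencies. CpG-rich origins elsewhere (12544) had a median efficiency of 0.918, tracts elsewhere (577) 0.874 and the remaining 9372 had 0.828. The mean efficiency difference within kinds was -0.00472 (adjusted p = 0.0044, permutation test), against -0.0296 without regard to kind. For early calls the difference within kinds was -10.0 points (adjusted p = 3.4e-05, permutation test), against -33.6 without regard to kind. Of CpG-rich origins elsewhere 66.9% were called at 15 minutes against 41.3% of the CpG-rich members, while for tracts the shares were 0.867% and 0.508%, with intervals that overlap. CpG-rich intronic origins resembled the members, with 40.2% called (interval 33.7 to 46.9). For SNS-seq overlap the difference within kinds was -10.4 points (adjusted p = 3.4e-05, permutation test), and without tracts it was -13.4 points.

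**Figure D4:**
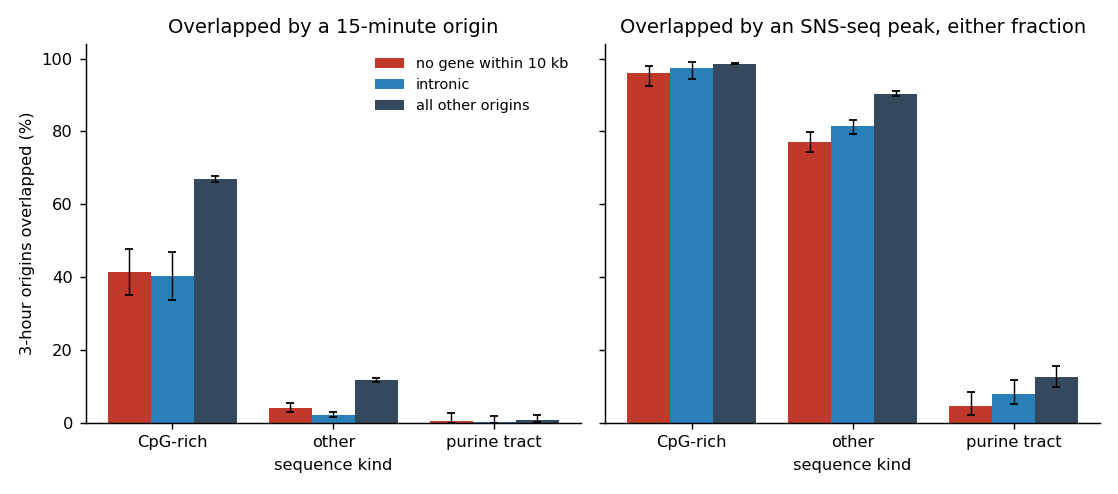
Share of 3-hour origins overlapped by a 15-minute origin (left) and by an SNS-seq peak (right), by sequence kind, for gene-distant, intronic and all other origins, with 95% exact binomial intervals as bars. Purine tracts are overlapped by an SNS-seq peak in 4.57% of gene-distant, 7.96% of intronic and 12.5% of all other origins.

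The 5 members of highest efficiency were all CpG-rich. The member at chrX:39688901-39689300, the first sequence above, had an efficiency of 1.0, an observed/expected CpG ratio of 0.835, a 15-minute Z-score of 1.32 and peaks of both SNS-seq fractions. The member at chr16:34802101-34802600 had 0.9907, with a CpG ratio of 1.18, no G4 motif and 26.6% purines on the plus strand. Its sequence repeats loosely, with 57.6% of positions matching at a period of 24 bases, short of both limits for a tandem repeat. This member had peaks of both SNS-seq fractions and no 15-minute call, and its nearest other origin was 419 kb away. The member at chr7:20798001-20798700 near SP8 had 0.9904 and a Z-score of 1.73, and the nearest other origin was 466 kb away. The fourth, at chr22:25421001-25421400, had 0.9895 and no 15-minute call, and the RefSeq record LOC124905095 overlaps it. The fifth, at chr12:94873101-94873800, lay 21.5 kb from NDUFA12, a gene of respiratory complex I, and had 0.9885 and a Z-score of 0.43.

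Among purine tracts, the interval at chr11:59690701-59691000 had an efficiency of 0.9484 with 4.67% purines on the plus strand, no 15-minute call and the nearest SNS-seq peak 15125 bp away. The tract at chr12:58149001-58149300 had 1.0% purines and an efficiency of 0.9273, and its nearest peak was 5928 bp away. The tandem repeat at chrX:584001-585300 had 0.8977, with the nearest peak 12008 bp away. A repeat with a period of 56 bases at chr13:112214801-112215400, near LINC01070, held 10 G4 motifs, had an efficiency of 0.8337 and was overlapped by a peak of 2 to 4 kb. The chr11 and chr12 tracts also repeat, with a period of 4 bases at which 75.7% and 76.7% of positions match. These matches fell short of the main rule for a tandem repeat but passed the looser match also tried. Both of these tracts were in the high class, and none of the 4 intervals was called at 15 minutes.

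Median efficiency differed little with distance beyond the limit, while the mix of kinds differed. With the nearest gene at 10 to 20 kb (612 members), 20 to 50 kb (568), 50 to 100 kb (156) and beyond 100 kb (76), median efficiencies were 0.839, 0.837, 0.838 and 0.841. The share called at 15 minutes was 13.1% (interval 10.5 to 16.0), 8.63% (6.45 to 11.2), 6.41% (3.12 to 11.5) and 2.63% (0.32 to 9.18). Purine tracts made up 10.1% (7.86 to 12.8), 15.3%, 19.2% and 23.7% (14.7 to 34.8) of these bands. The CpG criterion was met by 21.4% (18.2 to 24.9), 15.8%, 11.5% and 15.8% (8.43 to 26.0), without a steady trend. SNS-seq overlap was 74.8%, 68.8%, 64.1% and 55.3%. The outer bands hold few members and their intervals overlap with those next to them. The 3 members farthest from any gene were of low or medium efficiency. They were chr6:90947101-90947700 at 360 kb (0.8658, overlapped by the RefSeq record LOC107986623), chr9:32010501-32011100 at 282 kb (0.8023) and chr6:81214601-81215100 at 276 kb from TENT5A, a poly(A) polymerase gene (0.8362). Each was overlapped by an SNS-seq peak of 2 to 4 kb, and none was called at 15 minutes.

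Sequence far from genes was poor in origins for its extent. It made up 26.8% of the assembled bases and held 1.79 origins per Mb, against 10.5 per Mb in the rest of the genome. All assembled bases were counted, also those to which reads may not align at 1 position. How this bears on the 2 densities was not tested. The 10 kb rule took in 1.63% of the 15-minute origins (166 of 10181), 10.2% of SNS-seq peaks of 0.5 to 2 kb and 9.78% of those of 2 to 4 kb. Of the 166 gene-distant 15-minute origins, 152 (91.6%, interval 86.3 to 95.3) overlapped a 3-hour origin, against 95.4% of those nearer to genes, while 5.73% of the gene-distant peaks of 0.5 to 2 kb did, against 17.2% of the peaks nearer to genes. Among 1 kb windows with GC above 60%, 28.5% of 3445 gene-distant windows overlapped a 3-hour origin (interval 27.0 to 30.1), against 50.4% of 50839 other windows. Windows that only touched an origin were counted here and below, which can raise the shares of both sets.

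**Figure D5:**
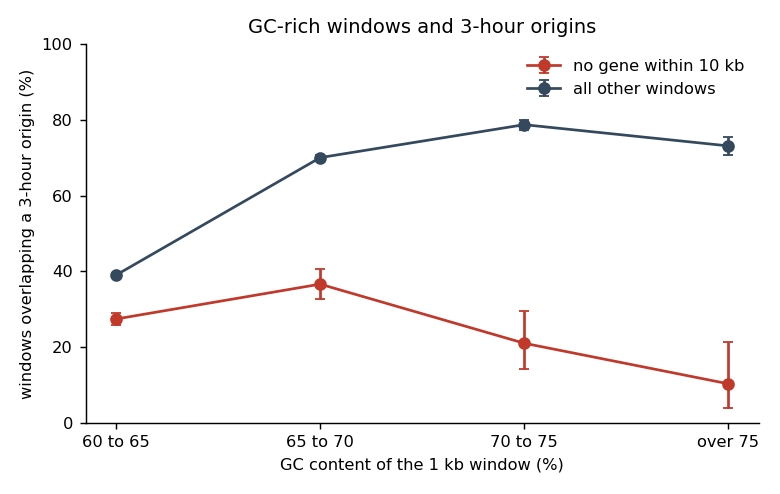
Share of 1 kb windows overlapping a 3-hour origin, by GC content of the window, for windows with no gene within 10 kb and for all others, with 95% exact binomial intervals as bars. The other windows rise from 39.0% to over 70%, and the gene-distant windows fall from 36.6% at 65 to 70% GC to 10.3% above 75%.

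The gap widened with GC content. At 60 to 65% GC the shares were 27.4% and 39.0%, at 65 to 70% they were 36.6% and 8465 of 12095 windows, at 70 to 75% they were 21.0% (interval 14.1 to 29.4) and 78.7%, and above 75% they were 10.3% (6 of 58 windows, interval 3.89 to 21.2) and 73.1%. The windows differed in sequence as well as in position. Above 70% GC, 22.0% of the 177 gene-distant windows held a tandem repeat and 30.5% met the CpG ratio, against 4.26% and 85.2% of the 5351 others. Among windows above 70% GC with the CpG ratio and no tandem repeat, 18 of 30 gene-distant windows (interval 40.6 to 77.3%) overlapped an origin, against 87.0% of the others. SNS-seq peaks were scarce in the same windows, overlapping 13.8% of the gene-distant windows above 75% GC and 79.7% of the others.

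Members were spread unevenly over the genome. They made up 1.71% of origins on chromosome X (5 of 293), 2.05% on chromosome 19 and 10.9% on chromosome 18, and none lay on chromosome Y. Per Mb of gene-distant sequence their number ran from 0.0796 on X and 0.897 on chromosome 13 to 6.65 on chromosome 19 and 9.81 on chromosome 22, and the other origins had their lowest autosomal density on chromosome 4 (5.45 per Mb) and their highest on 19 (45.7). Within 5 Mb of a chromosome end lay 537 members (interval 35.5 to 40.6%), against 27.1% of the other origins and 39.7% of intronic ones. Within 1 Mb of an end the order differed, with 4.6% of members (interval 3.57 to 5.83), 6.38% of the other origins and 7.37% of intronic ones. By kind the share within 5 Mb was 47.0% of the 973 others, 18.6% of CpG-rich members and 17.8% of tracts, and the same kinds elsewhere had 43.8%, 15.1% and 15.6%.

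Spacing from the nearest other origin had a median of 14450 bp. Against all other origins the mean log10 difference of 0.10 just missed the threshold (adjusted p = 0.052, permutation test), and the call depended on the setting. The difference was -0.00135 without purine tracts (adjusted p = 0.98), 0.26 within sequence kinds (adjusted p = 3.4e-05) and 0.18 within GC deciles (adjusted p = 0.0011) by the same permutation test, and it passed the threshold in 5 of 10 alternatives. Members were farther from their neighbours than intronic origins by 0.17 (adjusted p = 0.0011) and than intergenic origins near a gene by 0.38 (adjusted p = 2.2e-05), on the same log10 scale and by the same permutation test. Among members, tracts stood farthest apart, with a median gap of 59800 bp. Of them 37.1% had no other origin within 100 kb, against 15.3% of CpG-rich members and 8.84% of the 973 others. Intronic tracts were much the same, with a median gap of 64200 bp and 36.7%. Tracts among all other origins had 33800 bp and 26.7%. Ini-domains, runs of at least 6 origins joined within 100 kb, held 929 members (65.8%) and 66.8% of the other origins. Only 2 of the 251 ini-domains with a member were made of gene-distant origins alone.

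Joined within 100 kb of each other, the members formed 779 groups, 543 of them of 1 member. The 3 largest groups lay within 3874 kb of a chromosome end. A group of 22 members spanned 226 kb at chr7:1188601-1414800 between ZFAND2A-DT and MICALL2, another of 21 spanned 208 kb at chr1:2831001-3039200 up to PRDM16-DT, the divergent transcript of a transcription factor gene of brown fat, and the last of 18 spanned 262 kb at chr4:3611901-3874000. These spans also held 2, 2 and 4 gene records and 10, 5 and 6 origins that are not gene-distant. Median efficiencies were 0.834, 0.824 and 0.83. Of these 61 members 43 were in the low class, 53 had an SNS-seq peak, 1 met the CpG criterion, 1 was a tract and 1 was called at 15 minutes. Over all 1412 members these shares were, in the same order, 52.8%, 70.2%, 17.8%, 14.0% and 9.99%. Over the whole list they were 33.4%, 91.6%, 53.7%, 3.24% and 40.3%. Of the gene records nearest to most members, MICALL2 was nearest to 12, the lncRNA ENSG00000287396 on chromosome 1 to 11, LINC01164 on chromosome 10 to 10, and the lncRNA ENSG00000233082 on chromosome 7, MIR4686 on chromosome 11 and the pseudogene AK6P1 on chromosome 12 to 9 each.

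The nearest gene record was a lncRNA for 616 members (43.6%), protein coding for 480 (34.0%) and a pseudogene for 196 (13.9%). The median gap to the nearest protein-coding gene was 43462 bp. The flanking genes of all types diverged from the origin for 21.3% of members, converged on it for 424 members (interval 27.6 to 32.5%) and ran the same way for 48.7%. In the high class 21.8% were divergent (interval 15.9 to 28.7), and in the low class 20.6% were (17.8 to 23.7). Between protein-coding genes the divergent share was 21.8% in the high class (15.9 to 28.7) and 30.8% in the low class (27.5 to 34.3), intervals that overlap slightly. Orientation was counted for members alone, so whether these shares differ from those of other origins or of random positions was not tested.

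The central 300 bases were searched for 5 short motifs. GGGCGG, the GC box bound by Sp1 family factors, was found on either strand in 37.4% of members, against 58.6% of all origins over the same length, and in 74.8% of CpG-rich members against 78.5% of CpG-rich origins elsewhere. In tracts it was in 5.58% of members and 3.81% elsewhere. CACGTG, the E-box, was in 5.24% of members and 6.35% of all origins, CCAAT in 14.6% and 15.8%, TGANTCA in 3.4% and 3.11%, and TATAAA in 1.42% and 1.38%. A match is a description of the letters only.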

How the data were processed

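Ini-seq 2 was run for 3 hours and 15 minutes and SNS-seq on 2 size fractions, all with EJ30 material. The genomic DNA input was not analysed here. The authors' reads, aligned by bowtie2 to hg38, were filtered to unique alignments, freed of PCR duplicates (samtools) and counted in 100 bp windows, which were merged within 500 bp and called as origins. The deposited 3-hour value is a fraction, HL/(HL + LL), of at least 0.8, although the list's heading names a Z-score; the deposited 15-minute value is a score, a Z-score over that list. The authors pooled 2 biological replicates at 3 hours and called SNS-seq peaks with MACS2. Deposited interval positions, taken as 1-based for ini-seq 2, were set against GENCODE 44 and hg38 with Python 3.11.15, numpy 2.4.6, scipy 1.17.1 and pandas 2.3.3.

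Overlap means at least 1 shared bp, or intervals that touch end to end. Ini-seq 2 intervals and GC windows lie on position grids, so pairs that only touch can occur. Such pairs can only raise an overlap share, and their number was not counted. Members were compared with all other origins, intronic origins and intergenic origins near a gene by the mean of per-chromosome differences over chromosomes with at least 5 origins in each group, which weights chromosomes equally, with 100000 sign flips (two-sided) and Benjamini-Hochberg adjustment over 24 tests at 0.05. These p-values measure the spread among chromosomes of 1 list, not among cultures. Named members are the 5 most efficient, the 3 longest, the 3 farthest from a gene, the 3 with the highest 15-minute score, the 3 largest groups, the 3 on each side of the limit, the 2 most repetitive, the 2 of most extreme purine share and the most efficient one without an SNS-seq peak within 5 kb. One member under the purine rule is not reported here. Gene names are the flanking records of these members and the 5 records nearest to most members, with the one tied for the last place. RefSeq records are those of GRCh38.p14. Members, lists and rules were chosen with earlier results of these data known. The scripts were tested on simulated data.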

Additional observations from a re-analysis of the deposited data

How the results depend on the processing

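Of 276 alternative values of the 24 tested differences, 230 kept their direction and their side of the threshold. Against all other origins, the differences in length, 15-minute calls, SNS-seq overlap, GC content and CpG criterion did so in every alternative, although several were smaller. GC content differed by -2.61 points without purine tracts and -0.707 within sequence kinds, the CpG criterion by -18.5 points and log2 length by -0.29 within GC deciles, 15-minute calls by -10.0 points and SNS-seq overlap by -10.4 points within kinds. The efficiency difference was -0.00265 and the G4 difference -2.99 points within GC deciles, neither past the threshold. The spacing difference passed it at a 20 kb limit (0.25) and a 50 kb limit (0.40), within GC deciles (0.18), within sequence kinds (0.26) and without members near a RefSeq record (0.10), and changed sign without purine tracts (-0.00135). The causes were not tested. The last 3 alternatives named here (purine tracts left out, members with a RefSeq gene record within 10 kb left out, differences within sequence kinds) were chosen after seeing the data.

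Against intronic origins, these differences moved across the threshold or changed sign. Efficiency lost its call at 50 kb (0.00119) and within kinds (0.00133), and length lost its call at 20 kb (0.05) and 50 kb (0.05). The 15-minute difference gained a call at 5 kb (4.68 points), with protein-coding genes alone (8.52), without origins within 1 Mb of chromosome ends (4.21), with the first origin of each run (4.21), without purine tracts (5.22) and without members near a RefSeq record (3.33). The SNS-seq difference, never past the threshold, changed sign with protein-coding genes alone (3.05 points), away from chromosome ends (0.129), with the 0.5 to 2 kb fraction (0.469) and with both fractions (0.329). The GC difference changed sign at 20 kb (-0.204), at 50 kb (-0.227), in 1 kb windows (-0.208), without members near a RefSeq record (-0.099) and within kinds (-0.0224), and passed the threshold with protein-coding genes alone (0.916). The G4 call was lost at 20 kb (3.54 points), at 50 kb (4.11), with loops of 1 to 12 bases (3.46), in 1 kb windows (1.64) and within kinds (3.57). The CpG call was lost at 50 kb (0.259 points), under the stricter criterion (1.73) and in 1 kb windows (4.71). The spacing call was lost at 5 kb (0.09).

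Against intergenic origins near a gene, efficiency lost its call with protein-coding genes alone (-0.00225) and within kinds (-0.00216) and changed sign within GC deciles (0.0024). Length lost its call at 50 kb (-0.20) and GC content within kinds (-0.323). The G4 difference gained a call at 20 kb (-5.71 points), with protein-coding genes alone (-4.54), without purine tracts (-5.42) and without members near a RefSeq record (-5.26).

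The number of members was 800 at a 20 kb limit, 232 at 50 kb and 3263 with protein-coding genes alone. Low-class members with a 15-minute origin within 5 kb were 4.56%. Gene-distant windows overlapping an origin were 32.4% above 65% GC and 14.4% above 55% GC. At 20 kb the rule took in 3.35% of 3-hour origins, 0.688% of 15-minute origins, 5.77% of 0.5 to 2 kb peaks and 5.5% of 2 to 4 kb peaks. Tandem repeats were found in 135 members at a match of 70%.

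No paired analysis was possible because each condition is 1 list and the labels give no replicate numbers. The repeat-masked share was not run, since the reference used is not soft-masked. Depth per origin is unknown in these lists, so a missing call at 15 minutes or in SNS-seq does not show that a site was inactive.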
